A study of Mus musculus with 6 samples.

Results

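Matrix metalloproteinases (MMPs), ADAM and ADAMTS proteases and the tissue inhibitors of metalloproteinases (TIMPs) were followed in RNA sequencing libraries labelled as lung of young and aged mice. The genes were taken by symbol and class: protein-coding rows of the deposited table named as a numbered Mmp, Adam or Adamts gene or as Timp1 to Timp4. This gave 78 of 54532 rows, made up of 22 Mmp, 33 Adam, 19 Adamts and 4 Timp genes.

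Most of these proteases carry a catalytic domain built around a zinc ion, and a few ADAMs lack protease activity. Most MMPs and ADAMTS proteases are secreted as inactive precursors and cut collagens, proteoglycans and other matrix proteins, while most ADAMs are anchored in the membrane and release the outer parts of growth factors, cytokines and adhesion proteins. The 4 TIMPs bind the active enzymes and block them, and in lung the balance between proteases and inhibitors is studied in emphysema, fibrosis and airway remodelling.

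There were 6 libraries of total RNA, 3 labelled young (mice aged 3 months) and 3 labelled aged (mice aged 18 months), with tissue given as lung in all. The sources used here give neither strain nor sex, nor whether each library came from its own mouse. All p-values are therefore relative to the scatter of these libraries, which may be technical. Values are FPKM, fragments scaled to gene length and to a size per library that is not exactly its number of recovered reads. Higher, lower, rose and fell always describe the aged-labelled libraries against the young-labelled ones. In bulk RNA, fewer cells of a type and less RNA per cell cannot be told apart.

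Whole reads recovered from the FPKM values came to between 16649061 and 17456715 per library. Most cell type markers went against the tissue label in every library: of 56 markers of 9 cell types found in lung or blood, 43 were under 1 FPKM in all 6 libraries and 6 were at 10 FPKM or more in all of them. Among the alveolar type 1 markers Cav1, Pdpn and Aqp5 were at 36.6 FPKM or more, while Ager, the marker most specific to these cells, reached at most 0.679 FPKM, and the alveolar type 2 marker Sftpc at most 0.112 FPKM. The summed alveolar type 1 list was 257 to 263 FPKM in the young-labelled libraries and 407 to 420 FPKM in the aged-labelled ones, while Hopx of that list was at 9.998 to 10.4 against 5.68 to 6.48 FPKM. The leukocyte marker Ptprc reached at most 0.0953 FPKM and the endothelial marker Pecam1 at most 0.322 FPKM. Of 8 fibroblast and smooth muscle markers, Col1a1, Col1a2 and Pdgfra stood at 11.6 FPKM or more, Tcf21 was at 0 and the other 4 were under 1 FPKM. The summed level of that list was 585 to 607 FPKM in the young-labelled libraries and 380 to 426 FPKM in the aged-labelled ones. Nearly all of it was Col1a1 and Col1a2. For 8 macrophage and monocyte markers the sums were 9.95 to 12.3 FPKM and 34.6 to 35.0 FPKM, nearly all of it Cd68 and Lyz2, with the other 6 under 1 FPKM in all libraries. Kidney transcripts were present in young-labelled libraries 1 and 3, where the summed level of 10 kidney tubule markers reached up to 134 FPKM, against 0.831 FPKM in the lowest library of that group and at most 1.88 FPKM in the aged-labelled libraries. The part of these marker levels in the results that follow was not tested, except that counts are also given without young-labelled libraries 1 and 3.

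Timp2 was the most abundant of these transcripts and had the largest log2 fold change on the log2(FPKM + 1) scale, which understates that of low genes, while most tested ADAMTS proteases fell. Timp2 and Timp1 rose 2.79-fold and 1.93-fold. Of 9 ADAMTS genes that could be tested, 6 fell and 0 rose by limma (0 at an unadjusted p under 0.05, and 1, Adamts6, by voom on recovered reads), where 32.3% of all tested genes fell and 27.7% rose. The falls were led by Adamts14 (3.24-fold lower), Adamts1 (2.34-fold lower), Adamts7 (2.05-fold lower) and Adamts5 (2.04-fold lower). Of the 10 ADAMTS genes too low to be tested, 9 had more reads in the aged-labelled libraries and 1 in the young-labelled ones. Over all untested protein-coding genes with a read, 69.4% had more in the aged-labelled libraries. MMPs and ADAMs went both ways, with 2 of 6 tested MMPs and 3 of 10 tested ADAMs (2 of 9 without Adam3, described next) higher, and 2 MMPs and 3 ADAMs lower.

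Of the 78 genes, 27 had at least 0.5 FPKM in at least 3 libraries and were tested. By limma with Benjamini-Hochberg adjustment over all 15197 tested genes, 18 of the 27 (66.7%) passed an adjusted p of 0.05, against 60.0% of all tested genes. Of these, 7 were higher (27.7% of all tested genes were) and 11 were lower (32.3% of all were). Both groups were fully separated, with no overlap, for 21 of the 27, against 66.9% of all tested genes. For 7 of them the aged-labelled libraries were all above (31.3% of all tested genes) and for 14 all below (35.6% of all). Timp2 and Adamts14, 2 of the 27, changed 2-fold or more as measured by log2(FPKM + 1), against 4.84% of all tested genes. The share that changed was thus close to that of the whole table, and the median log2 fold change was -0.09, against -0.03 over all tested genes. Among the 27, Adam3 passed the filter on low values through the aged-labelled libraries alone and so had to differ. Without it 6 of 26 were higher and 11 lower. Without young-labelled libraries 1 and 3, which leaves 1 library in that group, 5 were higher and 8 were lower, and over all tested genes the counts went from 4212 to 2938 higher and from 4903 to 3296 lower.

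**Figure D1:**
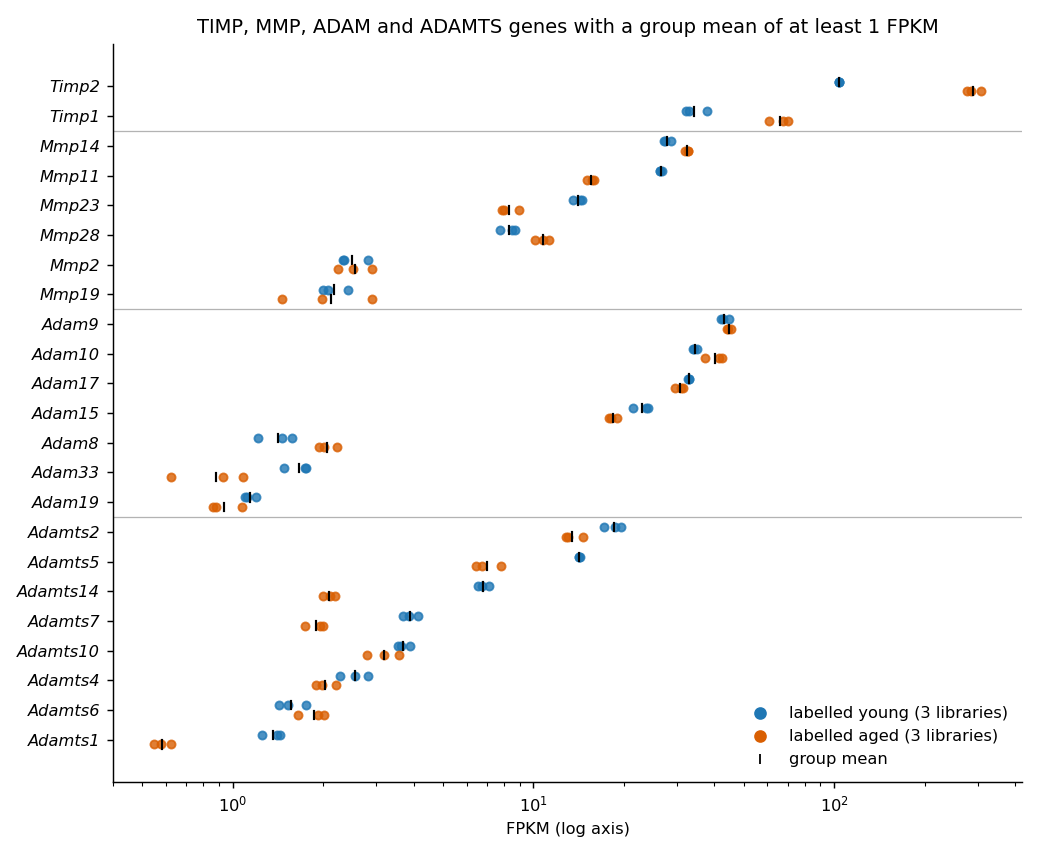
FPKM (log axis) of the 23 genes whose mean reached 1 FPKM in either group, 1 point per library, with the group mean as a short line and horizontal lines between TIMPs, MMPs, ADAMs and ADAMTS genes. Timp2 is far to the right of all others, at 103 to 104 FPKM in the young-labelled libraries and 276 to 308 FPKM in the aged-labelled ones, and the points of Adamts14, Adamts1, Adamts5 and Adamts7 lie further left in the aged-labelled libraries.

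Timp2 encodes a secreted inhibitor that also, together with MMP14 at the cell surface, brings the MMP2 precursor to its activation (chromosome 11, 118301069 to 118355740, minus strand, mm10). It stood at 104, 104 and 103 FPKM in young-labelled libraries 1 to 3 and at 276, 284 and 308 FPKM in the aged-labelled ones. Every aged-labelled library was above every young-labelled library, at a mean of 289 ± 16.8 against 104 ± 0.242 FPKM (SD, with n = 3 libraries per group for all means). The log2 fold change on the log2(FPKM + 1) scale was 1.47 ± 0.05 (SE), with limma adjusted p = 2.78e-06. Timp2 alone made up 24.8% to 25.2% of the summed FPKM of the 78 genes in the young-labelled libraries and 46.6% to 49.4% in the aged-labelled ones.

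Timp1, a secreted inhibitor that is induced by cytokines and growth factors in many cells (chromosome X, 20870166 to 20874735, plus strand), had 32.96, 32.2 and 37.8 FPKM in the young-labelled libraries and 70.5, 67.5 and 60.5 FPKM in the aged-labelled ones. The groups did not overlap, and the log2 fold change was 0.93 ± 0.08 (SE), with limma adjusted p = 9.29e-05. Timp1 lies inside Syn1 on the other strand, with no exon base shared in GENCODE M21, and Syn1 itself reached at most 0.512 FPKM.

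The other inhibitors were scarce. Timp3, which stays bound to matrix and also inhibits ADAM17 and aggrecanases, had 0.856, 0.283 and 0.441 FPKM in the young-labelled libraries and 0.343, 0.224 and 0.286 FPKM in the aged-labelled ones, so the groups overlapped and it was too low to be tested. Its higher values were in young-labelled libraries 1 and 3, the 2 libraries with kidney transcripts, and the part of these in the Timp3 level was not tested. Young-labelled library 2, at 40 reads, lay within the 31 to 48 reads of the aged-labelled libraries. Timp3 shares 1733 of its 8144 exon bases with Syn3 on the other strand, and the sources used here do not say whether reads were counted by strand. Timp4 was at 0.0493, 0.0391 and 0.0590 FPKM in the young-labelled libraries and at 0.128, 0.0800 and 0.0395 FPKM in the aged-labelled ones, 4 to 13 reads per library in overlapping groups.

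Because FPKM is scaled to gene length, levels can be summed over genes. The 4 TIMPs together came to 136 to 142 FPKM in the young-labelled libraries and to 346 to 369 FPKM in the aged-labelled ones. The 74 MMP, ADAM and ADAMTS genes together, which include some ADAMs without protease activity, came to 275 to 278 FPKM and 244 to 255 FPKM. The ratio of the first sum to the second was 0.502 ± 0.0115 in the young-labelled libraries and 1.43 ± 0.0146 in the aged-labelled ones. The TIMP sum was thus below the joint sum of these 74 genes in each young-labelled library and above it in each aged-labelled one. Against the MMP sum alone, the TIMP sum was higher in every library. That ratio was 1.67 to 1.76 in the young-labelled libraries and 4.67 to 5.03 in the aged-labelled ones. The ADAMTS sum was 53.8 ± 1.57 against 33.7 ± 1.95 FPKM in non-overlapping groups, the MMP sum was 81.6 ± 0.943 against 72.9 ± 1.57 FPKM, and the ADAM sum overlapped between groups at 140.0 to 141 and 138 to 146 FPKM. These sums are descriptions and carry no test.

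**Figure D2:**
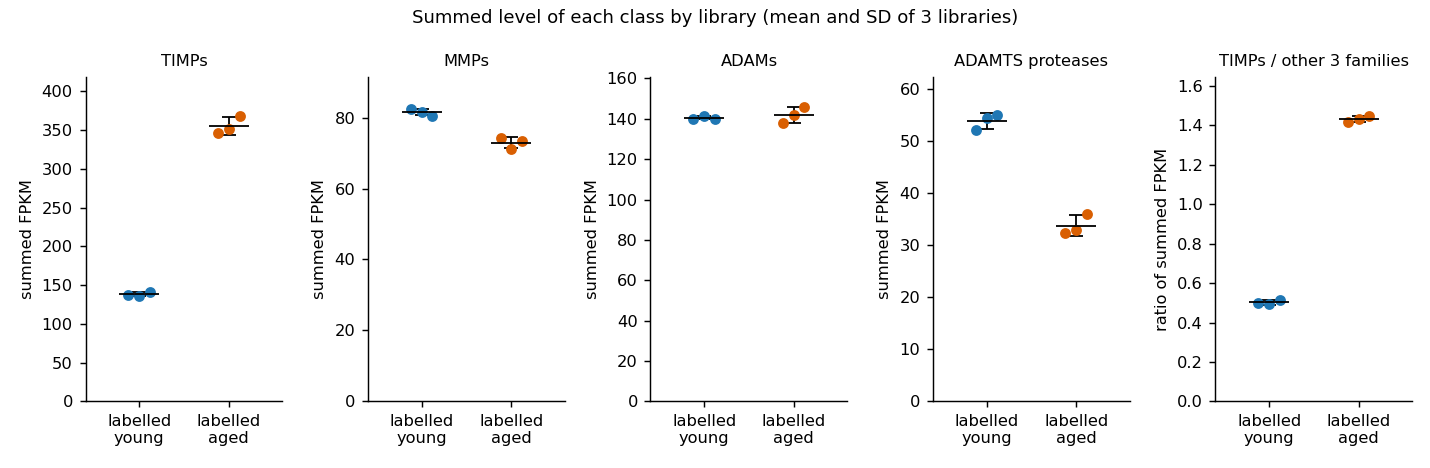
Summed FPKM of the 4 TIMPs, 22 MMPs, 33 ADAMs and 19 ADAMTS genes, and the ratio of the TIMP sum to the sum of the other 3 families, with 1 point per library and the mean and SD of each group of 3. The TIMP sum lies at 139 ± 2.82 against 356 ± 11.7 FPKM, the ADAMTS sum lies lower at 33.7 against 53.8 FPKM, and the ratio goes from about 0.502 to 1.43.

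Procollagen N-proteinases, which cut the amino-terminal propeptide from fibrillar procollagens, were lower. Adamts14 (chromosome 10, 61197112 to 61273438, minus strand) had 6.53, 7.12 and 6.74 FPKM in the young-labelled libraries and 1.99, 2.19 and 2.10 FPKM in the aged-labelled ones. All 3 aged-labelled libraries were below all 3 labelled young, with a log2 fold change of -1.33 ± 0.05 (SE; limma adjusted p = 6.61e-06). Adamts2, the most abundant gene of the ADAMTS family here (chromosome 11, 50602084 to 50807573, plus strand), had 17.2, 18.7 and 19.6 FPKM against 12.8, 13.0 and 14.6 FPKM. Its groups did not overlap, and it fell 1.37-fold (limma adjusted p = 0.00140; log2 change -0.43, SE 0.07). The remaining enzyme of this kind, Adamts3, had 0 reads in the young-labelled libraries and 3 in the aged-labelled ones. The fibroblast marker list, nearly all of it Col1a1 and Col1a2, moved the same way, 585 to 607 FPKM against 380 to 426 FPKM. Its part in the lower ADAMTS levels was not tested.

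The 3 tested proteases that cut aggrecan and versican also fell. Adamts5 (aggrecanase-2; chromosome 16, 85856173 to 85901828, minus strand) had 14.2, 14.2 and 14.3 FPKM in the young-labelled libraries and 6.44, 6.76 and 7.78 FPKM in the aged-labelled ones, a log2 fold change of -0.93 ± 0.06 (SE; limma adjusted p = 4.05e-05). Adamts1, its neighbour on the same strand with no other protein-coding gene between them, had 1.43, 1.40 and 1.26 FPKM against 0.548, 0.578 and 0.626 FPKM (limma adjusted p = 0.000761; log2 change -0.58, SE 0.08). Both genes were thus lower in every aged-labelled library, by about the same factor, at 2.04-fold and 2.34-fold. Adamts4 (aggrecanase-1) was at 2.55 ± 0.266 against 2.03 ± 0.155 FPKM with limma adjusted p = 0.0428, a call that was lost in 9 of 19 alternatives. The other 4 genes of this group, Adamts8, Adamts9, Adamts15 and Adamts20, were at 0.122 FPKM or less in all libraries. Of these, 3 had more reads in the aged-labelled libraries, and Adamts15 had fewer.

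Adamts7, which cuts cartilage oligomeric matrix protein (chromosome 9, 90163069 to 90208071, plus strand), had 3.69, 3.86 and 4.12 FPKM in the young-labelled libraries and 1.95, 1.74 and 1.99 FPKM in the aged-labelled ones. The groups did not overlap, and the log2 fold change was -0.76 ± 0.07 (SE; limma adjusted p = 0.000102). Adamts10 and Adamts6, both tied to fibrillin microfibrils, did not pass the test, at 3.69 ± 0.172 against 3.19 ± 0.382 FPKM and at 1.57 ± 0.169 against 1.86 ± 0.186 FPKM. Adamts12, related to Adamts7, was at 0.924 ± 0.0308 against 0.833 ± 0.0524 FPKM and did not pass either.

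**Figure D3:**
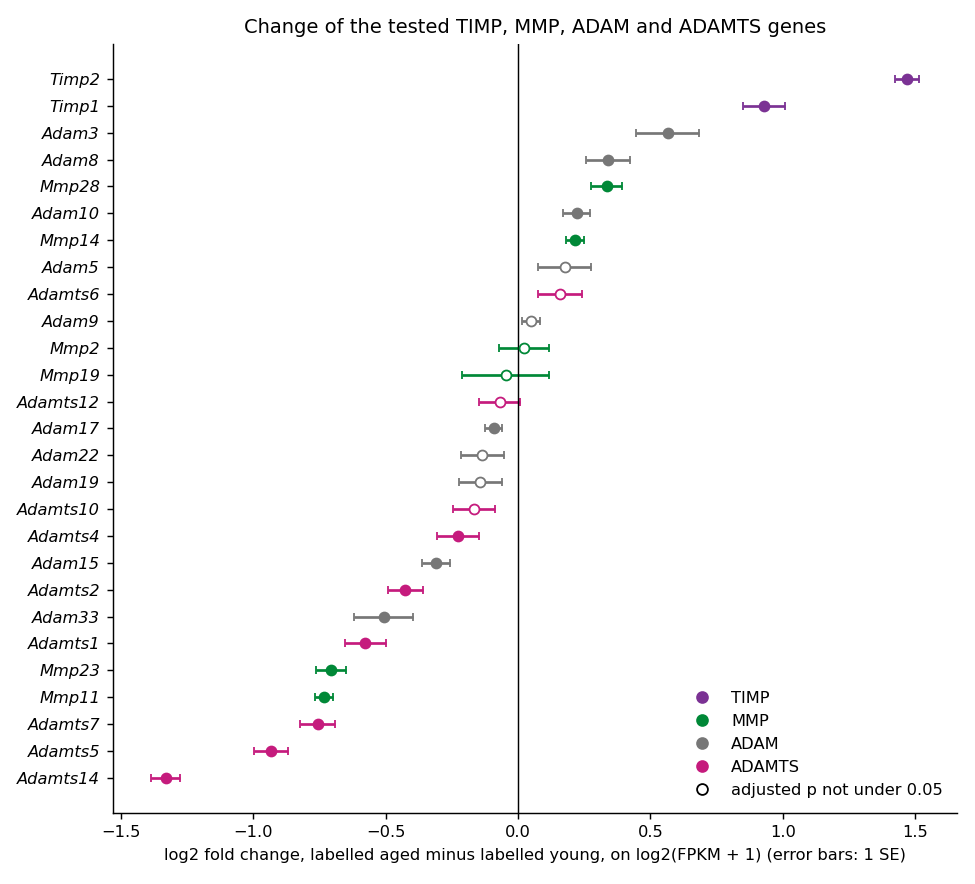
Log2 fold change of the 27 tested genes, aged-labelled libraries minus the young-labelled ones on the log2(FPKM + 1) scale, with 1 SE as error bars, filled where the adjusted p was under 0.05 and coloured by family. Timp2 (1.47) and Timp1 (0.93) lie at the upper end and Adamts14 (-1.33) and Adamts5 (-0.93) at the lower end, and the 6 filled ADAMTS points are all below 0.

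Among the MMPs, only 6 reached 1 FPKM in a group mean. Mmp14, the membrane-type enzyme that activates the MMP2 precursor and cuts fibrillar collagen at the cell surface (chromosome 14, 54431612 to 54445364, plus strand), rose 1.17-fold, with 27.5, 28.7 and 27.3 FPKM against 32.8, 31.9 and 32.6 FPKM (limma adjusted p = 0.00136, log2 fold change 0.21 ± 0.03 SE). Mmp28 (epilysin), a secreted enzyme of epithelia, rose 1.29-fold, from 8.31 ± 0.507 to 10.7 ± 0.579 FPKM (limma adjusted p = 0.00242), and shares 466 of its 3874 exon bases with a gene on the other strand, 1700020L24Rik, at 3.16 against 4.25 FPKM. The level of Timp2 relative to Mmp14 was 3.63 to 3.79 in the young-labelled libraries and 8.41 to 9.45 in the aged-labelled ones.

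Mmp11 (stromelysin-3), which is activated inside the cell by furin (chromosome 10, 75923222 to 75936496, minus strand), had 26.7, 26.4 and 26.4 FPKM in the young-labelled libraries and 15.9, 15.7 and 15.1 FPKM in the aged-labelled ones. The 2 groups were far apart relative to their spread, with a log2 fold change of -0.73 ± 0.03 (SE; limma adjusted p = 8.81e-06). Mmp23, a membrane-anchored enzyme that lacks the hemopexin domain of most MMPs (chromosome 4, 155650655 to 155653384, minus strand), had 14.3, 14.5 and 13.6 FPKM against 8.97, 7.89 and 7.96 FPKM. It fell by nearly the same factor as Mmp11, 1.71-fold against 1.70-fold (limma adjusted p = 7.15e-05; log2 change -0.71, SE 0.06). Mmp2 (gelatinase A) was at 2.50 ± 0.281 against 2.56 ± 0.340 FPKM and Mmp19 at 2.17 ± 0.218 against 2.12 ± 0.726 FPKM, and neither passed the test.

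Of the ADAM sheddases, the 4 most abundant differed by at most 1.25-fold between the groups. Adam9, a sheddase with many reported substrates, was at 43.1 ± 1.39 against 44.6 ± 0.764 FPKM and did not pass the test. Adam10, which cuts Notch receptors and many adhesion proteins, rose 1.17-fold, from 34.4 ± 0.553 to 40.3 ± 2.69 FPKM (limma adjusted p = 0.00837, log2 change 0.22). Without young-labelled libraries 1 and 3 the log2 change was 0.20, with adjusted p = 0.135 from 1 library against 3. Adam17, which releases tumour necrosis factor and ligands of the epidermal growth factor receptor, was at 32.8 ± 0.168 against 30.7 ± 0.967 FPKM, with limma adjusted p = 0.0469. That call was lost in 15 of 19 alternatives. Adam15, a membrane-anchored ADAM of many tissues, fell 1.25-fold, from 23.0 ± 1.45 to 18.4 ± 0.624 FPKM (limma adjusted p = 0.00214).

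Lower down, Adam8, known from leukocytes and activated cells, had 1.46, 1.22 and 1.57 FPKM in the young-labelled libraries and 2.02, 1.93 and 2.22 FPKM in the aged-labelled ones. The leukocyte marker Ptprc was at most 0.0953 FPKM beside it, and the summed macrophage list was higher in the same libraries, at 34.6 to 35.0 against 9.95 to 12.3 FPKM. The part of that list in the Adam8 level was not tested. Adam8 was higher in every aged-labelled library (limma adjusted p = 0.0109; log2 change 0.34, SE 0.08). Adam33, a gene linked to asthma, had 1.49, 1.75 and 1.74 FPKM against 0.625, 1.08 and 0.928 FPKM, and fell 1.89-fold in non-overlapping groups (log2 change -0.51, SE 0.11; limma adjusted p = 0.00682). Without young-labelled libraries 1 and 3 the log2 change was -0.56, with adjusted p = 0.0666 from 1 library against 3. Adam19 was at 1.14 ± 0.0525 against 0.939 ± 0.122 FPKM and did not pass the test.

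The ADAMs known mainly from testis and epididymis numbered 20, of which 7 had no read in any library. Adam3, a sperm surface protein, had 18, 17 and 10 reads in the young-labelled libraries and 34, 54 and 51 in the aged-labelled ones. In FPKM this was 0.355, 0.333 and 0.197 against 0.672, 1.08 and 1.01, with no overlap between the groups. Since the filter on low values let it in through the aged-labelled libraries alone, these values are a description, with no test. Adam3 lies in a row of 5 ADAM genes on the minus strand of chromosome 8 (24602246 to 25016927). Of its neighbours there, Adam18 had 0 and 9 reads over the 2 groups, Adam5 had 120 and 155 reads and did not pass the test, Adam32 had 7 and 11, and Adam9 is the abundant sheddase described above.

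The 51 genes too low to be tested included 10 with no read in any library: Mmp1b, Mmp7, Mmp12, Adam6a, Adam6b, Adam7, Adam24, Adam25, Adam26a and Adam29. Mmp12 is the macrophage elastase and Mmp7 is matrilysin of epithelia. Of the 41 low genes with a read, 35 had more reads in the aged-labelled libraries, 5 had more in the young-labelled ones and 1 had the same number. Over all 7186 untested protein-coding genes with a read, 69.4% had more reads in the aged-labelled libraries, compared with 85.4% of these 41. Summed reads rose by a similar factor in both sets. They were 700 (young-labelled) and 916 (aged-labelled) for the 41 genes, and 114210 and 148331 for all 7186. Young-labelled libraries held reads of 24074 to 24363 genes each, and aged-labelled ones of 26703 to 26925.

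**Figure D4:**
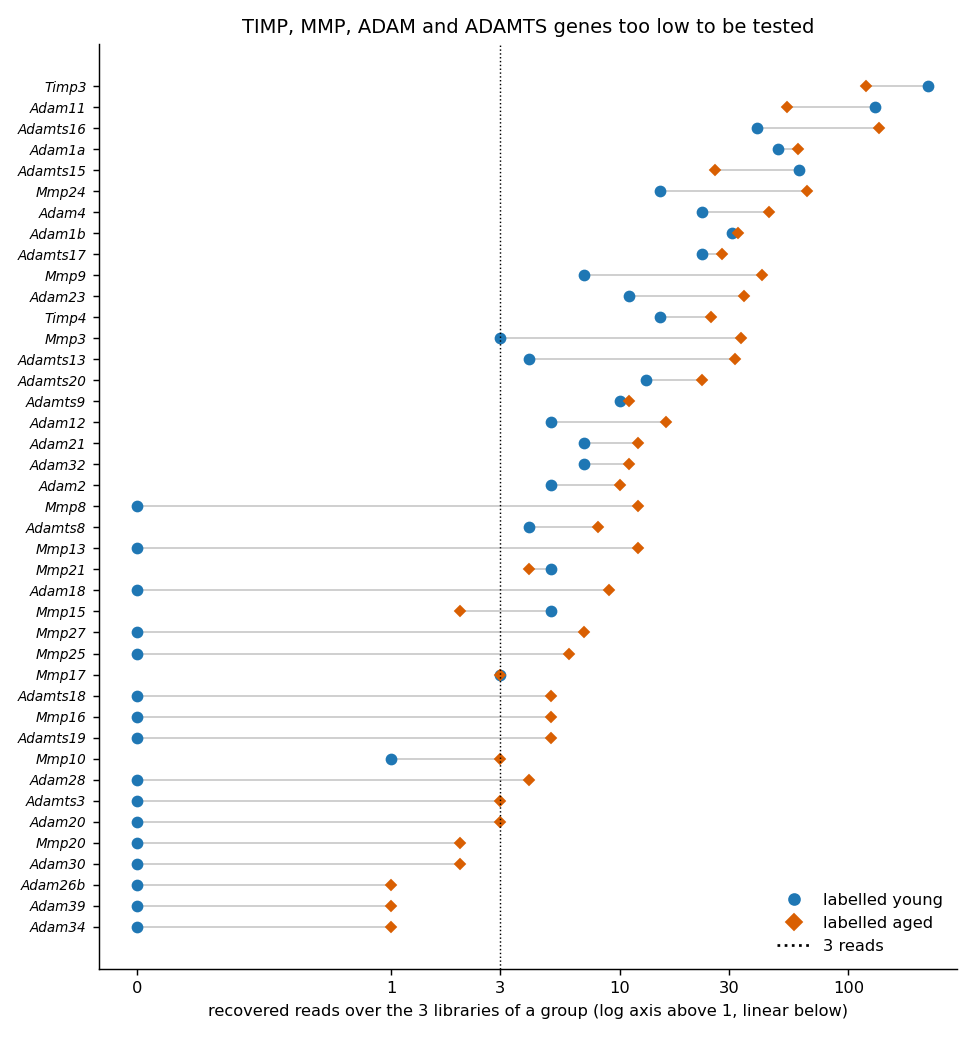
Recovered reads summed over the 3 libraries of each group for the 41 genes with a read that were too low to be tested, on an axis that is logarithmic above 1 read and linear below, with a dotted line at 3 reads. Diamonds (labelled aged) lie to the right of circles (labelled young) for 35 genes, and Timp3, Adam11 and Adamts15 are among the 5 that lie the other way.

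Several other MMP genes were near the limit of counting. Mmp3 (stromelysin-1; chromosome 9, 7445822 to 7455975, plus strand) had 0, 1 and 2 reads in the young-labelled libraries and 9, 13 and 12 in the aged-labelled ones, a ratio of 11.7 relative to library size (exact 95% counting interval from 3.68 to 59.6). Mmp13 and Mmp8, both collagenases, had 0 reads in all young-labelled libraries and 12 reads each over the aged-labelled ones, which is at least 4.13-fold higher against a floor of 3 reads over the group. Mmp9 (gelatinase B) had 2, 1 and 4 reads against 15, 9 and 18 (ratio 6.20, interval 2.76 to 16.4). Intervals and floors cover counting error only. At their highest these 4 genes stood at 0.426 FPKM or less, far below Mmp14.

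Mmp3, Mmp8 and Mmp13 belong to a row of 9 MMP genes on chromosome 9 (7272514 to 7699585) with no other protein-coding gene between them, which over the 3 libraries of a group held 4 reads in the young-labelled libraries and 70 in the aged-labelled ones. AP-1, a pair of Fos and Jun proteins, is a textbook inducer of several of these genes and binds the letters TGANTCA. RefSeq promoters (GRCm38.p6) were found for 48 of the 78 genes and all 9 of the row, and the 250 bases before the start were searched on both strands for those letters and for the TATA box, TATAAA, which cannot overlap them. A gene counted if any of its promoters matched, and Mmp7 and Mmp12 each also have a promoter without the AP-1 letters. Those letters were present in 7 of the 9 genes, and 6 of the 9 held the TATA box as well. Counted per promoter and not per gene, 6.75% of all 32851 promoters held the AP-1 letters and 12.4% the TATA box. Promoters were found for 6 genes that rose and 7 that fell, and 0 of these held the AP-1 letters. The last 100 bases before the start are shown for 3 genes of the row to let these letters be seen beside each other, and for Timp1 and Adamts1 as genes that rose and fell. Capitals mark the AP-1 letters, the TATA box and the GC box, GGGCGG on either strand, which was found in 32.7% of all promoters and cannot overlap the AP-1 letters:
Mmp3, chr9:7445722-7445821, plus strand: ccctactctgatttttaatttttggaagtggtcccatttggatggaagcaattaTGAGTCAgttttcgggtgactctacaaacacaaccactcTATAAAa
Mmp10, chr9:7502242-7502341, plus strand: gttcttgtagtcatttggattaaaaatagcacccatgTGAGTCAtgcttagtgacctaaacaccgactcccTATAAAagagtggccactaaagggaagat
Mmp13, chr9:7272414-7272513, plus strand: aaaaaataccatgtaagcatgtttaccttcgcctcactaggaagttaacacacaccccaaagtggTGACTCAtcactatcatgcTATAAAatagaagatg
Timp1, chrX:20870066-20870165, plus strand: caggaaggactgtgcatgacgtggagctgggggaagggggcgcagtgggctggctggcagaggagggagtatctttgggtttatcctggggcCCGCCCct
Adamts1, chr16:85803114-85803213, minus strand: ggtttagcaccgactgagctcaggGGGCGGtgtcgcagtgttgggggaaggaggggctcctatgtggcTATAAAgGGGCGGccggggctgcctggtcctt

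In the 3 MMP stretches the AP-1 letters begin 46, 63 and 35 bases before the RefSeq start of Mmp3, Mmp10 and Mmp13 and stand upstream of the TATA box. Reads were 3 and 34 for Mmp3, 1 and 3 for Mmp10 and 0 and 12 for Mmp13 over the young- and aged-labelled libraries. Mmp1b, Mmp7 and Mmp12 also hold the AP-1 letters in a promoter and had no read in any library. A match describes the sequence and not binding.

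Genes of the same pathway outside these families were counted from lists. In the plasminogen system, whose proteases activate MMP precursors, 3 of 5 tested genes rose and 1 fell, with a median log2 fold change of 0.74 against -0.03 over all tested genes. For this and the lists that follow, 27.7% of all tested genes rose and 32.3% fell. Plau (urokinase) rose 2.17-fold to 25.5 ± 1.39 FPKM and its receptor Plaur 1.70-fold to 38.7 ± 3.88 FPKM, whereas Plat (tissue plasminogen activator) fell from 10.5 ± 0.580 to 7.39 ± 0.173 FPKM.

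Of 14 tested genes that activate, assist or clear metalloproteinases, 5 rose and 8 fell (27.7% and 32.3% of all tested genes), with a median log2 fold change of -0.17. Furin, the convertase that removes the propeptide of MMP11, MMP14 and many ADAMs, fell 1.62-fold, from 17.9 ± 0.0924 to 11.1 ± 0.305 FPKM, and Tspan14, a tetraspanin that escorts ADAM10, fell 1.70-fold to 10.3 ± 0.137 FPKM. Cd44, a hyaluronan receptor that is shed by MMP14 and ADAM10, rose 1.91-fold to 51.4 ± 0.986 FPKM, and Lrp1, a scavenger receptor that takes up MMPs, ADAMTS proteases and TIMPs, rose 1.83-fold to 92.8 ± 4.17 FPKM.

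Genes listed as other inhibitors went both ways, with 2 of 4 tested genes higher and 2 lower and a median log2 fold change of -0.26. Reck, a membrane-anchored inhibitor of MMPs, fell from 2.26 ± 0.253 to 0.982 ± 0.164 FPKM, opposite to Timp1 and Timp2. Thbs2, a matricellular protein that binds MMP2, rose 3.37-fold to 139.7 ± 4.29 FPKM, and Cst3 (cystatin C, an inhibitor of cathepsins) rose 1.15-fold to 276 ± 9.38 FPKM. Thbs1 was at 1.71 ± 0.158 against 0.359 ± 0.0210 FPKM. It passed the filter on low values through the young-labelled libraries alone and so had to differ. Its values are a description, although the counts and median of this list include it. Both tested ADAMTS-like genes, whose products resemble ADAMTS proteases without a catalytic domain, fell (median log2 fold change -0.25; 32.3% of all tested genes fell). Adamtsl4 was 1.25-fold lower at 31.0 ± 1.03 FPKM and Adamtsl5 was 1.14-fold lower at 30.2 ± 1.23 FPKM. The other 4 genes of the list were too low to be tested, and each had more reads in the aged-labelled libraries. Adamtsl2 had 25 and 164 reads over the groups (ratio 6.78, interval 4.43 to 10.8), Adamtsl3 55 and 180 (ratio 3.38, interval 2.49 to 4.66), Papln 23 and 53, and Adamtsl1 0 and 22.

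Among 11 tested proteases and helpers of other kinds, 5 rose and 4 fell (median log2 fold change 0.10). The lysosomal enzymes Ctsk (cathepsin K) and Ctsd (cathepsin D) rose 2.52-fold and 2.26-fold, to 52.6 ± 2.23 and 150.1 ± 3.80 FPKM. Pcolce, which speeds removal of the carboxy-terminal propeptide of procollagen, fell 1.81-fold, from 154 ± 5.06 to 84.8 ± 2.49 FPKM, and Hpse (heparanase) fell 1.96-fold to 15.4 ± 0.744 FPKM.

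**Figure D5:**
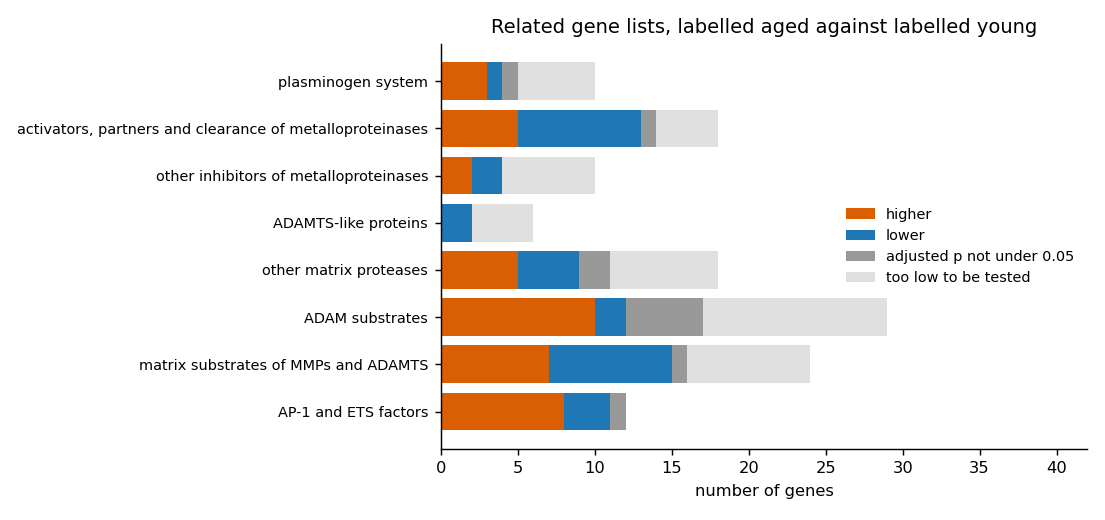
Number of genes in each related list that were higher, lower, not past an adjusted p of 0.05, or too low to be tested in the aged-labelled libraries against the young-labelled ones. ADAM substrates (10 higher, 2 lower) and the AP-1 and ETS factors (8 higher, 3 lower) hold more higher than lower genes, and the list of activators, partners and clearance (5 higher, 8 lower) holds more lower ones.

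Of 17 tested substrates of ADAMs, 10 rose and 2 fell, where 27.7% of all tested genes rose and 32.3% fell, with a median log2 fold change of 0.34. Ereg (epiregulin), a growth factor precursor released by ADAM17, rose from 2.78 ± 0.115 to 7.32 ± 0.259 FPKM, Mertk, a receptor shed by ADAM17, from 2.74 ± 0.248 to 9.03 ± 0.429 FPKM, and Tnfrsf1b (a receptor of tumour necrosis factor) from 15.7 ± 0.462 to 28.1 ± 1.03 FPKM. L1cam, an adhesion molecule cut by ADAM10, fell 2.60-fold to 12.8 ± 0.390 FPKM. The matrix proteins on which MMPs and ADAMTS proteases act were split, with 7 of 16 tested genes higher and 8 lower (median log2 fold change -0.09). Vcan (versican), a substrate of ADAMTS1 and ADAMTS5, rose 2.99-fold to 12.1 ± 0.493 FPKM, Fn1 (fibronectin) rose 1.82-fold and Col4a2 (type IV collagen) 1.52-fold, while Col3a1, whose propeptide ADAMTS2 and ADAMTS14 remove, fell 3.24-fold. The other fibrillar collagens went both ways: Col1a1 fell 1.49-fold, Col1a2 1.53-fold and Col5a1 1.14-fold, and Col5a2 rose 1.39-fold.

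In the list of AP-1 and ETS transcription factors, which drive several MMP promoters, 8 of 12 tested genes rose and 3 fell (27.7% and 32.3% of all tested genes did), with a median log2 fold change of 0.51. Jun rose 1.54-fold to 25.5 ± 1.27 FPKM, Fosl1 2.53-fold to 53.3 ± 2.35 FPKM and the ETS factor Etv4 2.26-fold to 29.1 ± 1.54 FPKM, while Fosl2 fell 1.76-fold to 19.9 ± 0.697 FPKM. Jund, not among the 4 genes of smallest p, fell 3.31-fold, from 69.0 ± 15.3 to 20.9 ± 1.27 FPKM. The AP-1 genes thus went both ways: Junb and Fos also rose, and Fosb did not pass the test.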

How the data were processed

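Per the labels' protocols, RNA was extracted with TRIzol, libraries were read on an Illumina instrument, and HISAT2 2.0.5 placed the read pairs on the genome. The submitters' processing notes name mm10 as the build. The sources used here name no gene counter, annotation or strand setting. The authors deposited FPKM values for 54532 genes in 6 libraries.

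FPKM times gene length was a whole multiple of 1 step in 100% of values above 0 (tolerance 0.01 reads), which gave whole reads. That step implied a size of 1.722e+07 reads in young-labelled library 1 and 1.719e+07 in aged-labelled library 1. Recovered reads there were 17266815 and 16887256. Read ratios were scaled by recovered reads, so they differ from FPKM folds (2.85 against 2.79 for Timp2). Pairs of libraries within a group differed beyond sampling noise (chi-square per degree of freedom 2.25 to 4.93; 76.8 to 81.6 between groups), so each counted as 1 sample. Genes with at least 0.5 FPKM in at least 3 libraries were tested on log2(FPKM + 1), which understates the change of low genes, with limma 3.58.1 in R 4.3.3 (linear model on group, mean-variance trend, 2-sided, Benjamini-Hochberg over all tested genes, threshold 0.05). Folds are ratios of mean FPKM. The fit was tested on simulated data in which few genes changed, evenly up and down. That setting differs from these data, where 60.0% of all tested genes passed.

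The genes and lists were chosen with earlier results of these data known. Genes at 1 FPKM or more in a group mean are named, with every library's value for the 12 largest changes past the threshold and the TIMPs, and up to 4 genes of each related list by smallest p; not every gene this rule picks is reported here. Alternatives were other pseudocounts, filters, scalings and limma settings, voom on recovered reads, a replicate block, and leaving libraries out. Overlaps were read from GENCODE M21, of which 67 of 68 genes had the deposited start and end. Other steps used Python 3.11.15, pandas 2.3.3, scipy 1.17.1 and matplotlib 3.10.9.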

Additional observations from a re-analysis of the deposited data

How the results depend on the processing

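Of the 18 genes past the threshold, 13 kept direction and call in each of the 19 alternatives that tested them and all 18 kept their direction. Adam3 is among the 18 but not among the 13. It passed the filter on low values through the aged-labelled libraries alone, so its direction and call carry no test. The calls of Adam17 and Adamts4 were lost in 15 and 9 alternatives, and those of Adam10, Adam33 and Adam3 only without young-labelled libraries 1 and 3, an alternative chosen after seeing the data in which their log2 changes were 0.20, -0.56 and 0.52. Of the 9 other tested genes, Adam22, Adam9, Adamts10 and Adamts6 passed in 1 or 2 alternatives. Leaving out 1 library at a time gave 7 higher in each case, Adam3 among them, and 9 to 11 lower. Over all genes it gave 3764 to 4030 higher and 4363 to 4678 lower. Without a filter on low values 13 of the genes were higher, as Mmp3, Mmp9, Mmp8, Adamts13, Adamts16 and Adam18 were added. There 11 were lower, with Adam11 and Adamts15 added and Adam17 and Adamts4 lost. This setting tested 68 of the genes, and over all genes 4814 were higher and 4516 lower. The median log2 fold change was -0.14 with a pseudocount of 0.1, 0.02 without the filter and -0.03 with median centring. With the replicate number as a block, the calls of Adam17 and Adamts4 were lost and none was added. Same-numbered libraries did not visibly deviate together (correlations of 0.00562, -0.00793 and 0.0192). With so few libraries per group, this does not settle whether they were paired. Depth limits the 41 low genes, where 3 reads on 1 kilobase are 0.173 to 0.177 FPKM.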

Other observations

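A few genes that were not tested or did not pass the test had values that a reader may want to see by library. Mmp19, a secreted MMP, had 1.47, 1.99 and 2.90 FPKM in the aged-labelled libraries, a range that spans the 2.01 to 2.42 FPKM of the young-labelled ones. It shares 789 of its 3533 exon bases with Tmem198b on the other strand. Mmp24, a membrane-type MMP known from the nervous system, had 5, 7 and 3 reads in the young-labelled libraries and 8, 23 and 35 in the aged-labelled ones, so the latter spread widely without overlap. It shares 637 of its 4683 exon bases with BC029722 on the other strand, which was at 18.7 against 9.89 FPKM. Adamts16 had 19, 10 and 11 reads against 43, 57 and 36 (ratio 3.51, exact 95% counting interval from 2.45 to 5.13). Adam11, an ADAM without protease activity, was among the 5 low genes with more reads in the young-labelled libraries, at 55, 39 and 37 against 16, 17 and 21 (ratio 0.426, interval from 0.304 to 0.589). These genes were picked after their values were seen.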
